A study of Mus musculus with 8 samples.

Results

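The let-7 family and its close relative miR-98 form a group of microRNAs (miRNAs) that share 1 seed, the bases near the 5′ end that pair with messenger RNAs. They were followed here in lungs of mouse dams after instillation of Printex 90, a carbon black nanoparticle. The members were the guide strands named mmu-let-7a, b, c, d, e, f, g and i and mmu-miR-98 on the array, taken by exact name, which gave 9 of the 611 mouse miRNAs on it. Passenger strands, the opposite arms of the same precursors, were not members and are described separately.

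The study measured lung RNA of female C57BL/6 mice (C57BL/6 Bom Tac dams) on 8 one-colour miRNA arrays in 2 groups of 4. The Printex 90 dams were given 0.067 mg of the particle in nanopure water through the trachea at each of 4 instillations. These fell on days 7 and 10 and on days 15 and 18 of gestation and add up to 0.268 mg. The vehicle control dams, also pregnant, were given nanopure water alone, and lungs of both groups were collected when pups were weaned, 26 to 27 days after exposure. The labels do not state the dams' age, nor whether each array was a separate mouse, so a p-value covers no more than the spread among these 8 samples, which may be technical. Whole lung was profiled, so fewer cells of a type and less RNA per cell cannot be told apart.

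let-7 miRNAs bind the messenger RNAs of cell-cycle and growth genes such as Hmga2, the Ras genes and Lin28 and lower their output. LIN28 in turn blocks the processing of let-7 precursors in embryonic cells, and mature let-7 accumulates as tissues differentiate, so adult lung is a tissue in which the family is known to be abundant. In lung cells, let-7 is known as a repressor of Ras genes and of growth.

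The mature sequences are shown because the members are nearly identical, and an array reads each through probes against these bases. RefSeq (GRCm38.p6) held all 9, each 22 bases long, and the seed (bases 2 to 8) is in capitals.
mmu-let-7a: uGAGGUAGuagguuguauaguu
mmu-let-7b: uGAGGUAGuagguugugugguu
mmu-let-7c: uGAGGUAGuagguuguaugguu
mmu-let-7d: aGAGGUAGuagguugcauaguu
mmu-let-7e: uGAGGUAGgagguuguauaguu
mmu-let-7f: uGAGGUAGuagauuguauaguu
mmu-let-7g: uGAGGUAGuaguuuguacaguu
mmu-let-7i: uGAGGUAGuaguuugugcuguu
mmu-miR-98: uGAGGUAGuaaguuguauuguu

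All 9 carried the seed GAGGUAG, and the bases differed between members at 8 of the 22 positions, all outside the seed. Positions are counted from the 5′ end, with the base of let-7a first. let-7c (A19G), let-7e (U9G) and let-7f (G12A) each differed from let-7a by 1 base. let-7b (A17G and A19G), let-7d (U1A and U16C), let-7g (G12U and U18C) and miR-98 (G11A and A19U) differed by 2. let-7i differed by 4 (G12U, A17G, U18C and A19U). Outside the members, mature miRNAs with the same seed in the RefSeq table included miR-1961 and let-7k. Not every chromosome was kept in that search, so the list may be incomplete.

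The 9 mature sequences come from 12 genes (coordinates of the mature arm, GRCm38.p6, from RefSeq). A cluster on the minus strand of chromosome 13 holds Mirlet7a-1 (chr13:48538239-48538260), Mirlet7f-1 (chr13:48537889-48537910) and Mirlet7d (chr13:48536078-48536099), with gaps of 261 and 1714 bases between the genes, and no other annotated gene spans it. On the plus strand of chromosome 15, Mirlet7c-2 (chr15:85706616-85706637) and Mirlet7b (chr15:85707325-85707346) lie 621 bases apart inside the long noncoding RNA gene Lncppara. On the plus strand of the X chromosome, Mirlet7f-2 (chrX:151912353-151912374) and Mir98 (chrX:151913229-151913250) lie 785 bases apart inside Huwe1, a ubiquitin ligase gene. Mirlet7g (chr9:106178846-106178867, plus strand) lies inside the protein-coding gene Wdr82 and 24626 bases from Mir135a-1 on the same strand. Mirlet7i (chr10:122985698-122985719, minus strand) has no spanning gene.

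A further set of 3 loci pairs a let-7 gene with a gene of the miR-99/100 or miR-125 families, all on the plus strand. Mirlet7c-1 (chr16:77599672-77599693) lies 656 bases from Mir99a. Mirlet7e (chr17:17830366-17830387) lies 367 bases from Mir125a, inside the protein-coding gene Spaca6. Mirlet7a-2 (chr9:41536732-41536753) lies 5211 bases from Mir100 and 45114 from Mir125b-1, inside the noncoding RNA gene Mir100hg. The gene table used does not separate exons from introns of these host genes. let-7a, let-7c and let-7f are each made from 2 genes, and the array cannot tell which gene supplied them.

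Each array carried 13000 non-control spots, of which none was saturated, and detected 248 to 283 mouse miRNAs. Signals are given relative to the array's own 75th percentile over the 240 mouse miRNAs that every array detected, which lay between 580.8 and 804.7 intensity units. The 8 arrays lay on 1 slide and were read in 1 scan, but the Printex 90 arrays lay in slide row 2 and the vehicle control arrays in row 1, so row and exposure cannot be told apart. As a check of the tissue, the endothelial miR-126 strands summed to 34.4 to 42.3 on the Printex 90 arrays and to 37.3 to 43.0 on the vehicle control arrays. The 6 epithelial markers (the miR-200 family and miR-375) summed to 7.74 to 9.32 on the Printex 90 arrays and to 7.41 to 8.29 on the vehicle control arrays. The neural miR-124 and miR-9 were detected on no array, as were 3 of the 7 striated muscle markers (miR-208a, miR-208b and miR-499). Another 3 of these 7 were detected on every array. The striated muscle sum was 0.430 to 3.17 on Printex 90 arrays and 0.497 to 2.03 on vehicle control arrays. In the same order, the erythroid sum was 21.7 to 30.6 and 19.7 to 46.9, and the leukocyte sum 7.1 to 8.51 and 6.73 to 8.68. The smooth muscle and mesenchymal sum was 6.41 to 7.76 and 6.91 to 7.35, and liver miR-122 reached 0.439 and 0.303.

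All 9 members were detected on every array, and none passed the test between Printex 90 and vehicle control lungs. In limma's test over 268 mouse miRNAs, 0 of the 9 had an adjusted p under 0.05, against 0 of all 268 (0.0%). At an unadjusted p under 0.05 the count was again 0 of 9, against 15 of all 268 (5.6%). The lowest adjusted p of a member was 0.767 and the lowest unadjusted p 0.408. Values of the groups overlapped for all 9. Over all tested miRNAs, Printex 90 arrays lay wholly above vehicle control arrays for 3 (1.12%) and wholly below for 1 (0.373%), together 4 (1.49%).

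let-7a measured 15.7, 16.9, 18.3 and 15.9 on the Printex 90 arrays (replicates 1 to 4), and 17.5, 16.7, 17.0 and 17.6 on the vehicle control arrays. The highest and the lowest of the 8 values were both Printex 90 arrays, replicates 3 and 1, so the vehicle control values fell inside the Printex 90 range. The means were 16.7 ± 1.19 in Printex 90 lungs and 17.2 ± 0.436 in vehicle control lungs (SD, n = 4 arrays each). The log2 difference, Printex 90 minus vehicle control, was -0.044 (SE 0.053, limma adjusted p = 0.767), with a 95% interval of -0.17 to 0.081.

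let-7f, which differs from let-7a by 1 base and shares a cluster with it, measured 16.6, 18.0, 19.4 and 17.1 on the Printex 90 arrays, and 18.5, 17.7, 18.2 and 18.9 on the vehicle control arrays. The same Printex 90 arrays were at both ends. Its means were 17.8 ± 1.25 in Printex 90 lungs and 18.3 ± 0.511 in vehicle control lungs, a log2 difference of -0.046 (SE 0.053, limma adjusted p = 0.767). let-7d, the remaining member of the chromosome 13 cluster, measured 5.11, 5.52, 6.01 and 5.32 on the Printex 90 arrays, and 5.81, 5.44, 5.60 and 5.74 on the vehicle control arrays. Its 2 lowest values were Printex 90 replicates 1 and 4 and its highest was again Printex 90 replicate 3, with the vehicle control values between. The log2 difference was -0.043 (SE 0.053, limma adjusted p = 0.767).

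let-7c and let-7b, which share a locus on chromosome 15, had the same Printex 90 arrays at their extremes. let-7c measured 12.5, 13.4, 14.7 and 12.9 on the Printex 90 arrays, and 13.9, 13.3, 13.7 and 14.0 on the vehicle control arrays, with a log2 difference of -0.043 (SE 0.052, limma adjusted p = 0.767). let-7b measured 10.2, 10.8, 12.1 and 10.5 on the Printex 90 arrays, and 11.3, 10.9, 11.3 and 11.3 on the vehicle control arrays, with a log2 difference of -0.048 (SE 0.055, limma adjusted p = 0.767). In both, 3 of the 4 Printex 90 arrays lay below the vehicle control mean and replicate 3 lay above every other array.

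let-7g, from the Wdr82 locus, measured 5.56, 6.19, 6.62 and 5.92 on the Printex 90 arrays, and 6.23, 6.08, 6.26 and 6.31 on the vehicle control arrays. The vehicle control values spanned a narrow band inside the Printex 90 range, with SDs of 0.445 in Printex 90 lungs and 0.1 in vehicle control lungs. The log2 difference was -0.038 (SE 0.053, limma adjusted p = 0.777).

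let-7e and let-7i were the 2 members with a positive log2 difference, and neither passed the test. let-7e, encoded beside miR-125a, measured 1.45, 1.58, 1.76 and 1.55 on the Printex 90 arrays, and 1.58, 1.49, 1.50 and 1.63 on the vehicle control arrays, a log2 difference of 0.030 (SE 0.064, 95% interval -0.12 to 0.18, limma adjusted p = 0.882). let-7i, the member farthest in sequence from let-7a, measured 6.82, 7.26, 7.38 and 7.20 on the Printex 90 arrays, and 7.12, 7.26, 6.98 and 6.91 on the vehicle control arrays. Its log2 difference was 0.019 (SE 0.032, 95% interval -0.057 to 0.095, limma adjusted p = 0.826). In each of the 2 members, 3 of the 4 Printex 90 arrays lay above the vehicle control mean, but the groups overlapped. let-7e turned to -0.022 without Printex 90 replicate 3, while let-7i stayed between 0.0047 and 0.043 with any 1 array left out.

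miR-98, whose gene lies beside Mirlet7f-2 on the X chromosome, measured 0.532, 0.573, 0.594 and 0.523 on the Printex 90 arrays, and 0.579, 0.553, 0.550 and 0.563 on the vehicle control arrays. Its lowest value was Printex 90 replicate 4, not replicate 1, and its highest was again Printex 90 replicate 3. The means were 0.555 ± 0.0337 in Printex 90 lungs and 0.561 ± 0.0132 in vehicle control lungs, and the log2 difference was -0.018 (SE 0.047, limma adjusted p = 0.916).

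**Figure D1:**
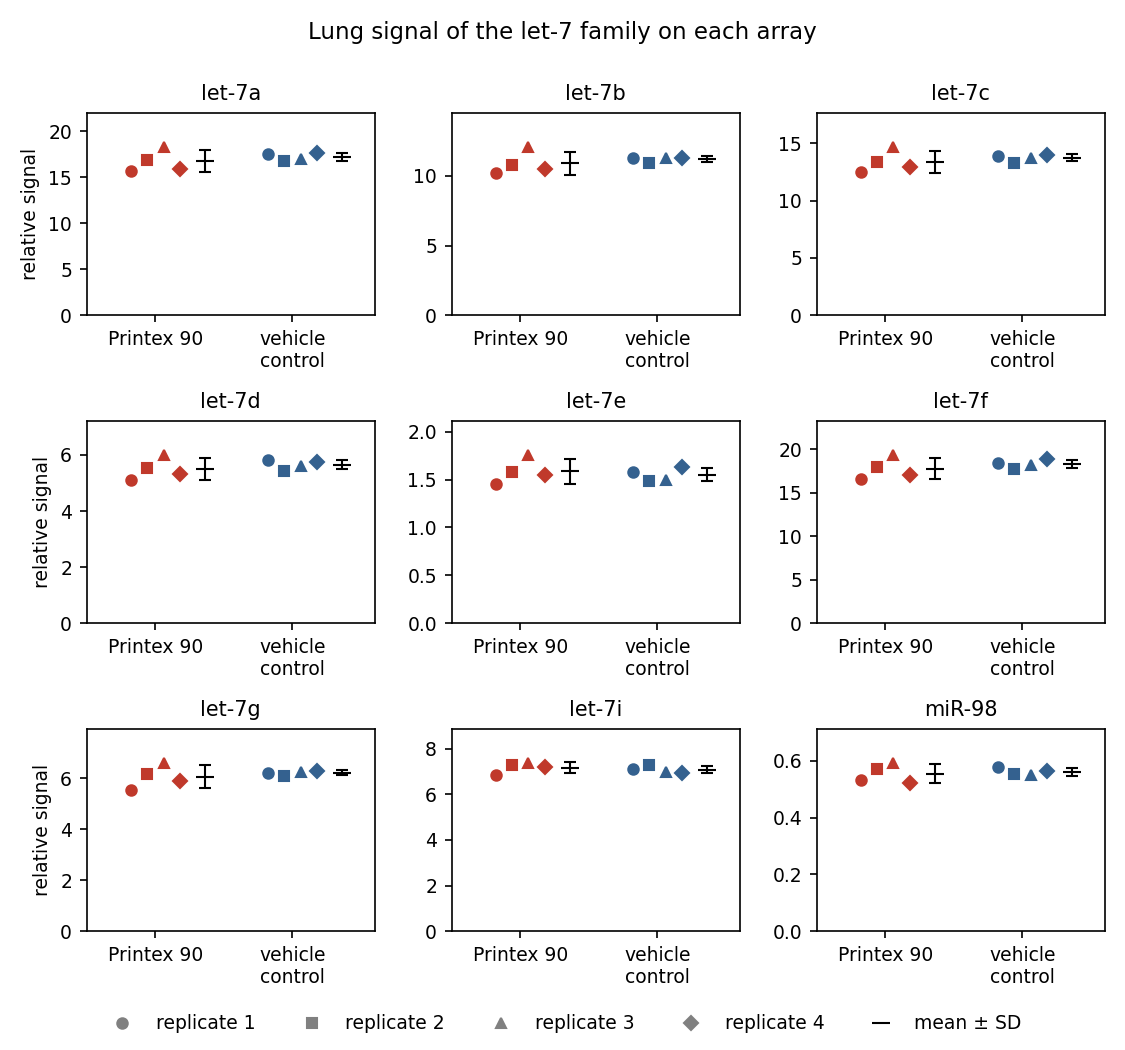
Relative signal (array signal over its own 75th percentile, linear axes starting at 0) of each of the 9 members on the 4 Printex 90 arrays (left, red) and the 4 vehicle control arrays (right, blue), with the mean and SD in black. Printex 90 replicate 3 (triangle) is the highest of the 8 arrays in every panel, and the groups overlap in every panel.

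The intervals of the members' differences were narrow on the 75th percentile scale used here. Over the 9 members, the 95% intervals together spanned ratios of Printex 90 to vehicle control of 0.884 to 1.13. They do not cover the choice of scaling, which moved all members by constants from -0.071 to 0.10 log2 units. The highest array exceeded the lowest by 1.08 times for let-7i and by 1.22 times for let-7e, with the other 7 members between. The residual SD of the members had a median of 0.076 log2 units (0.041 to 0.094), against a median of 0.12 over all 268 tested. Of the members, 2 had a positive and 7 a negative log2 difference, with a median of -0.043. Over all tested miRNAs 85 were positive and 176 negative, with a median of -0.046, so the members lay where most miRNAs lay on this scale. With the 75th percentile taken over all 611 mouse miRNAs, the split over all tested miRNAs was 131 positive and 128 negative, and all 9 members were positive, with a median of 0.0096. No direction is therefore given to the family.

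**Figure D2:**
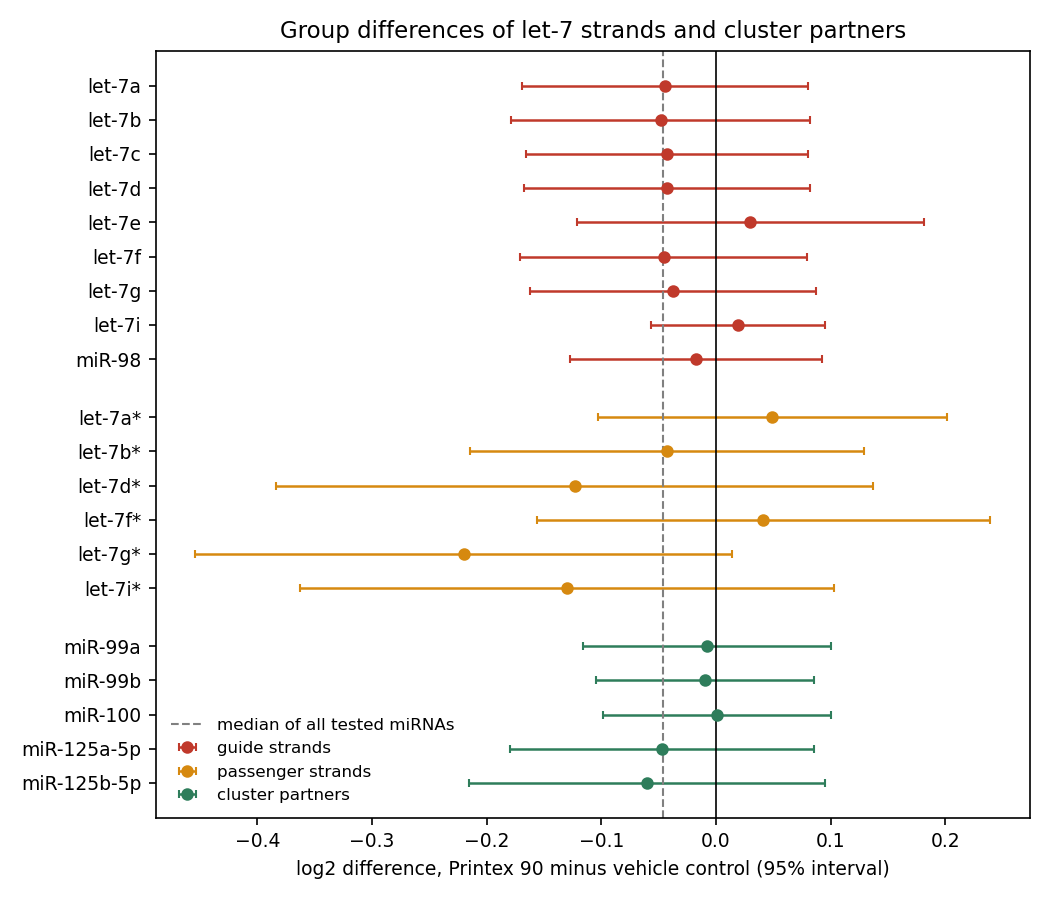
Log2 difference (Printex 90 minus vehicle control) with its 95% interval from limma for the 9 members, the 6 tested passenger strands and the 5 partners of the miR-99/100 and miR-125 families. Every interval includes 0, and the 3 widest intervals are those of let-7d*, let-7g* and let-7i*.

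Although the groups did not separate, the members lay on the same side of their means on 3 of the 8 arrays and on both sides on 5. Each member's deviation from its own mean over the 8 arrays was taken on the log2 scale and averaged over the 9. This average was -0.11, 0.0030, 0.11 and -0.057 on Printex 90 replicates 1 to 4, and 0.036, -0.021, -0.0010 and 0.037 on vehicle control replicates 1 to 4. On Printex 90 replicate 3 all 9 members were above their own mean (0.054 to 0.17), and on Printex 90 replicate 1 all 9 were below it (-0.14 to -0.060). On vehicle control replicate 1 all 9 were also above (0.0020 to 0.063). The 9 straddled 0 on Printex 90 replicate 2 (-0.034 to 0.038) and replicate 4 (-0.094 to 0.017), and on vehicle control replicates 2 (-0.073 to 0.029), 3 (-0.062 to 0.035) and 4 (-0.043 to 0.069). The median deviation of the 240 miRNAs detected on all arrays was 0.016 on Printex 90 replicate 3 and -0.019 on replicate 1, so on these 2 arrays the members stood farther out than the middle of all miRNAs. On Printex 90 replicate 4 that median was -0.093 and the members' average -0.057. The members were measured on the same arrays and share a seed, so these are not independent observations.

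**Figure D3:**
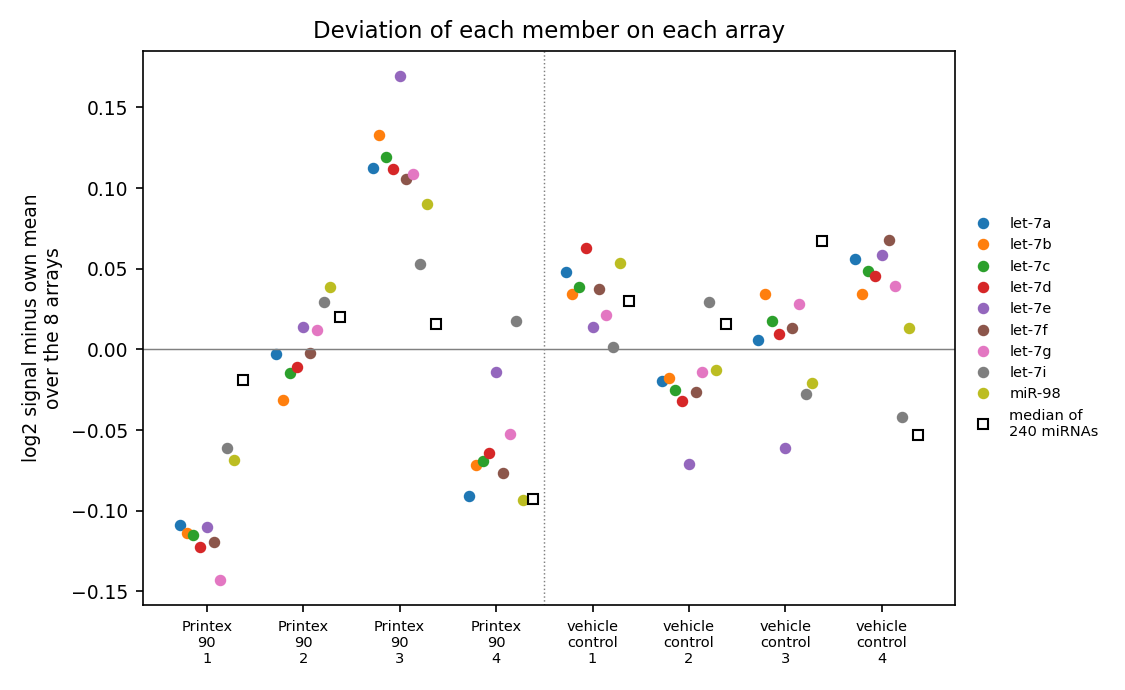
Log2 signal of each member minus its own mean over the 8 arrays, by array, with the 4 Printex 90 arrays left of the dotted line and the 4 vehicle control arrays right of it. Circles are members and open squares the median of the 240 miRNAs detected on all arrays. The 9 members lie together above 0 on Printex 90 replicate 3 and below 0 on Printex 90 replicate 1.

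On the 75th percentile scale, the spread of this shared level was larger among Printex 90 arrays. The average log2 signal of the 9 members had an SD of 0.094 over the 4 Printex 90 arrays and 0.029 over the 4 vehicle control arrays. All 9 members had the larger SD in Printex 90 lungs, and these 9 are not independent. Of the 240 miRNAs detected on all arrays, 153 (63.7%) also had the larger SD in Printex 90 lungs. So did all 5 partners of the miR-99/100 and miR-125 families, such as miR-99a (0.082 against 0.041) and miR-100 (0.063 against 0.054). The passenger strands went both ways (let-7b* 0.043 against 0.146, let-7i* 0.169 against 0.124). Without Printex 90 replicate 3 the SD of the members' average over the remaining Printex 90 arrays was 0.056, and without replicate 1 it was 0.085. Without replicate 3, again all 9 members had the larger SD in Printex 90 lungs, against 112 of the 240 miRNAs (46.7%). The summed intensity of the members before scaling had the smaller SD in Printex 90 lungs, 4660 units against 7640 in vehicle control lungs, so the order of the spreads turned with the scale. The difference in spread was not tested.

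Printex 90 replicates 1 and 3 were each at an extreme of other measures, but not of the same ones. Printex 90 replicate 3 had the lowest 75th percentile before scaling (580.8 intensity units) and the fewest detected mouse miRNAs (248). Printex 90 replicate 1 had the highest summed signal of striated muscle markers (3.17, against 0.430 to 0.563 on the other 3 Printex 90 arrays and 0.497 to 2.03 on the vehicle control arrays) and the lowest summed endothelial signal (34.4). The smooth muscle and mesenchymal sum was also highest on Printex 90 replicate 1, at 7.76, and the epithelial sum on replicate 3, at 9.32. Before scaling, the members' summed intensity was 46788 and 50462 units on Printex 90 replicates 1 and 3, and 50458 to 66845 on the vehicle control arrays. The part of these measures in the members' values was not tested.

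The share of the total signal gave a view that no percentile enters. The 9 members made up 17.5%, 17.2%, 18.5% and 17.7% of all mouse miRNA signal on Printex 90 replicates 1 to 4, and 17.2%, 18.0%, 17.3% and 18.2% on vehicle control replicates 1 to 4. The means were 17.7 ± 0.556% in Printex 90 lungs and 17.7 ± 0.499% in vehicle control lungs, and the groups overlapped. Printex 90 replicate 3 was highest here too, but the lowest were Printex 90 replicate 2 and vehicle control replicate 1, not Printex 90 replicate 1. The sum of relative signals was 79.6 ± 5.40 in Printex 90 lungs and 81.6 ± 1.67 in vehicle control lungs.

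A single scaling factor per array cancels in the balance among members, but quantile normalization and other probe summaries do not. For each member, its log2 signal minus the mean of the 9 on the same array was compared between groups, as a description. This difference, Printex 90 minus vehicle control, was 0.055 for let-7e (pooled SD 0.034) and 0.045 for let-7i (pooled SD 0.055). It lay between -0.023 and 0.0080 for the other 7. With quantile normalization let-7e turned to -0.027, let-7b to 0.030 and let-7d to 0.047, while let-7i was at 0.044. With the authors' deposited table let-7a turned to 0.062, and let-7e and let-7i were at 0.041 and 0.020. No member's values on this measure separated the groups. Of the 36 ratios between members, 1 separated them, let-7e over let-7f, higher by 0.076 log2 units on the Printex 90 arrays with a within-group SD of 0.029. Among all 28680 pairs of miRNAs detected on all arrays, 1141 separated the groups (3.98%), so 1 of 36 is near the background.

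Ratios between members varied little across the 8 arrays on this scale. The SD of the log2 ratio had a median of 0.037 over the 36 pairs, from 0.0093 for let-7c over let-7d to 0.075 for let-7e over let-7i. Over all 28680 pairs the median SD was 0.19, and over the 105 pairs of the 15 other miRNAs at least as bright as let-7d it was 0.094 (0.022 to 0.53). The 10 pairs of least spread among all 28680 included 7 let-7 pairs, the 20 of least spread included 9 and the 100 of least spread 15. The 15 pairs among let-7a, b, c, d, f and g, a subset picked after the values were seen, lay between 0.0093 and 0.025. The median over the 36 pairs was 0.068 with quantile normalization and 0.069 with the authors' deposited table, beside medians over all pairs of 0.17 and 0.11.

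The median spread was smaller for pairs that differ by 1 or 2 bases than for those that differ by 3 or 4. Which members made up the pairs differed as well. Pairs among let-7a, b, c, d, f and g stayed at or below 0.025 whatever their number of differences, and all wider pairs held let-7e, let-7i or miR-98. let-7e and miR-98 also had the lowest signals of the members, and these factors were not separated. The 4 pairs that differ by 1 base had a median SD of 0.013, the 10 pairs that differ by 2 had 0.028, the 11 that differ by 3 had 0.044 and the 9 that differ by 4 had 0.042. let-7i and let-7d, which differ by 6 bases, had 0.067. The pair of least spread, let-7c and let-7d, differs by 3 bases, and let-7a and let-7e, which differ by 1 (U9G, in the sequences above), had 0.050. Pairs share members, so no test was made. How far a probe for 1 member also binds another was not tested, and probe sequences were not used here.

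**Figure D4:**
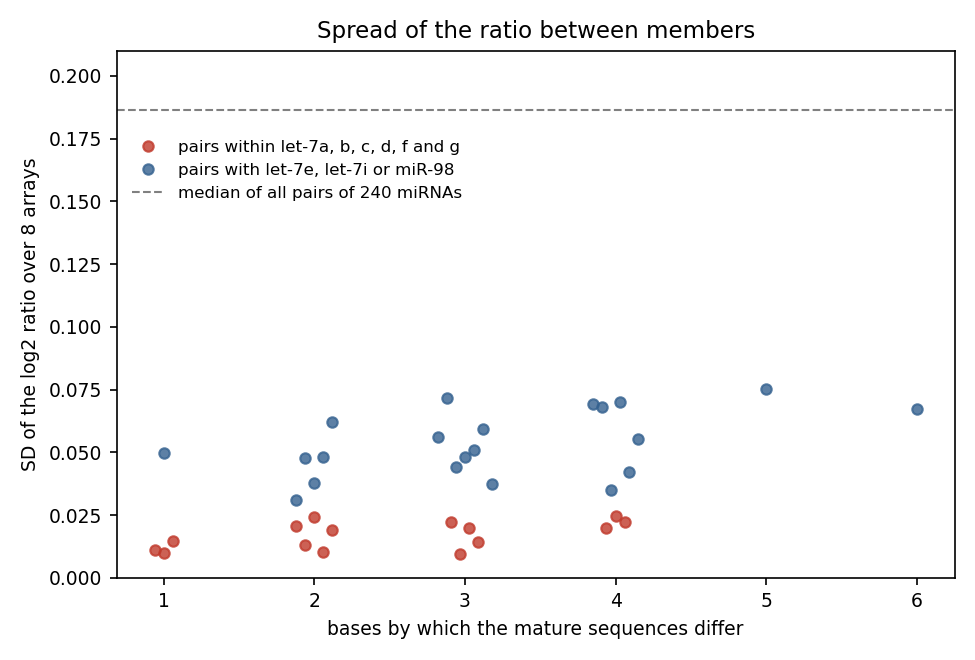
SD over the 8 arrays of the log2 ratio of each of the 36 pairs of members (vertical axis, log2 units) against the number of bases by which their mature sequences differ (horizontal axis). Pairs of let-7a, b, c, d, f and g stay at or below 0.025 whatever their number of differences, and pairs with let-7e, let-7i or miR-98 lie higher.

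Each member was read by 2 probes of 10 spots per array, 1440 spots in all, of which 44 (3.06%) were outliers and 1, of a let-7a probe, was not well above background. The spots of a probe on an array varied with a median coefficient of variation of 4.52% (2.52% to 6.32% by probe). Of the 18 probes 3 had a positive and 15 a negative log2 difference between Printex 90 and vehicle control, from -0.075 for a let-7c probe to 0.043 for a let-7i probe. Both let-7e probes were positive (0.019 and 0.037). let-7i was the 1 member whose probes differed in sign, at -0.0087 and 0.043.

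The passenger strands come from the same precursors as the guides and are usually degraded after loading. The array carried 7, of which let-7c-1* was detected on no array and lay at the floor, and 6 were tested. The let-7g* sequence is shown because it had the lowest p of these strands, with its seed in capitals (RefSeq, chr9:106178902-106178923, GRCm38.p6, plus strand).
mmu-let-7g*: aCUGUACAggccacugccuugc

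None of the 6 passed the test (0 by limma adjusted p and 0 at an unadjusted p under 0.05), 2 had a positive and 4 a negative log2 difference, and the median was -0.083. let-7g* measured 0.0603, 0.0689, 0.0563 and 0.0560 on the Printex 90 arrays, and 0.0632, 0.0793, 0.0744 and 0.0647 on the vehicle control arrays. All 4 Printex 90 values lay below the vehicle control mean of 0.0704, but Printex 90 replicate 2 lay above 2 vehicle control arrays. The log2 difference was -0.22 (SE 0.099, 95% interval -0.45 to 0.014, limma adjusted p = 0.706), and it was 0.055 with normexp background correction in place of the scanner's. It was -0.052 with the mean of probe log2 values, -0.057 with the scanner's total gene signal and -0.043 with the authors' deposited table. With no scaling it was -0.29. These signals lay not far above the floor of 0.0388, and with the floor doubled the log2 difference was -0.0077. The guide of the same precursor, let-7g, was at -0.038.

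let-7d* measured 0.372, 0.347, 0.294 and 0.295 on the Printex 90 arrays, and 0.334, 0.372, 0.404 and 0.314 on the vehicle control arrays, a log2 difference of -0.12 (SE 0.11, limma adjusted p = 0.767). Its lowest array was Printex 90 replicate 3, where the guide let-7d was highest. let-7b* was at -0.043 and let-7f* at 0.041. let-7i*, well above background on 1 Printex 90 array and 3 vehicle control arrays, was at -0.13. let-7a*, at the floor on 2 arrays of each group, was at 0.049, and values near the floor understate differences.

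The partners were a list of 5 miRNAs of the miR-99/100 and miR-125 families, set by name and not by distance, and had log2 differences between -0.060 and 0.0011. Of the 5, none passed the test, 1 had a positive and 4 a negative log2 difference, and the median was -0.010. miR-99a, encoded beside Mirlet7c-1, averaged 1.66 ± 0.0955 in Printex 90 lungs and 1.67 ± 0.0476 in vehicle control lungs. miR-100, encoded beside Mirlet7a-2, averaged 0.585 ± 0.0256 in Printex 90 lungs and 0.584 ± 0.0213 in vehicle control lungs. miR-125a-5p, encoded beside Mirlet7e, averaged 0.710 ± 0.0431 in Printex 90 lungs and 0.733 ± 0.0390 in vehicle control lungs. The log2 differences of miR-99b, for which no locus is given here, and of miR-125b-5p were -0.010 and -0.060, and the limma adjusted p of the 5 lay between 0.767 and 1.0.

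The miRNAs outside these lists whose array profile was most like that of the members were miR-22, miR-152 and miR-130a. Likeness was the root mean square difference, over the 8 arrays, between a miRNA's centred log2 profile and the mean centred profile of the 9 members. It was 0.017 for miR-22, 0.019 for miR-152 and 0.031 for miR-130a, against a median of 0.13 over the 222 candidates. The members themselves lay between 0.013 (let-7c) and 0.053 (let-7i). Both miR-22 and miR-152 lay nearer the mean profile than let-7b (0.021), let-7e (0.040), let-7i or miR-98 (0.027). miR-22 (0.0166) also lay nearer than let-7g (0.0171), and miR-130a lay nearer than let-7e or let-7i. These distances depended on the processing. With quantile normalization they were 0.030 for miR-22, 0.077 for miR-152 and 0.067 for miR-130a, and with the authors' deposited table they were 0.032 for miR-22, 0.089 for miR-152 and 0.069 for miR-130a. miR-22 measured 6.01, 6.33, 6.86 and 6.02 on the Printex 90 arrays, and 6.54, 6.37, 6.43 and 6.47 on the vehicle control arrays. Its highest and lowest arrays were Printex 90 replicates 3 and 1, as for every member but miR-98. miR-22 was chosen for a like profile, so these shared extremes are no separate observation.

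The sign of every member's log2 difference changed under at least 1 processing setting. All 9 had a positive log2 difference when the members were left out of the 75th percentile (median 0.059) or when only the brightest probe of each miRNA was used (median 0.025), and all 9 a negative one with no scaling between arrays (median -0.11). The brightest-probe setting also retook the 75th percentile over those probes. On the scale used elsewhere here, the brighter probes of let-7e and let-7i were positive (0.037 and 0.043). Those of the other members were negative, from -0.042 for let-7g to -0.026 for let-7d. Over the 24 alternatives the members' log2 differences lay between -0.12 and 0.13, and the lowest adjusted p of any member was 0.279, for let-7b without Printex 90 replicate 3.

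**Figure D5:**
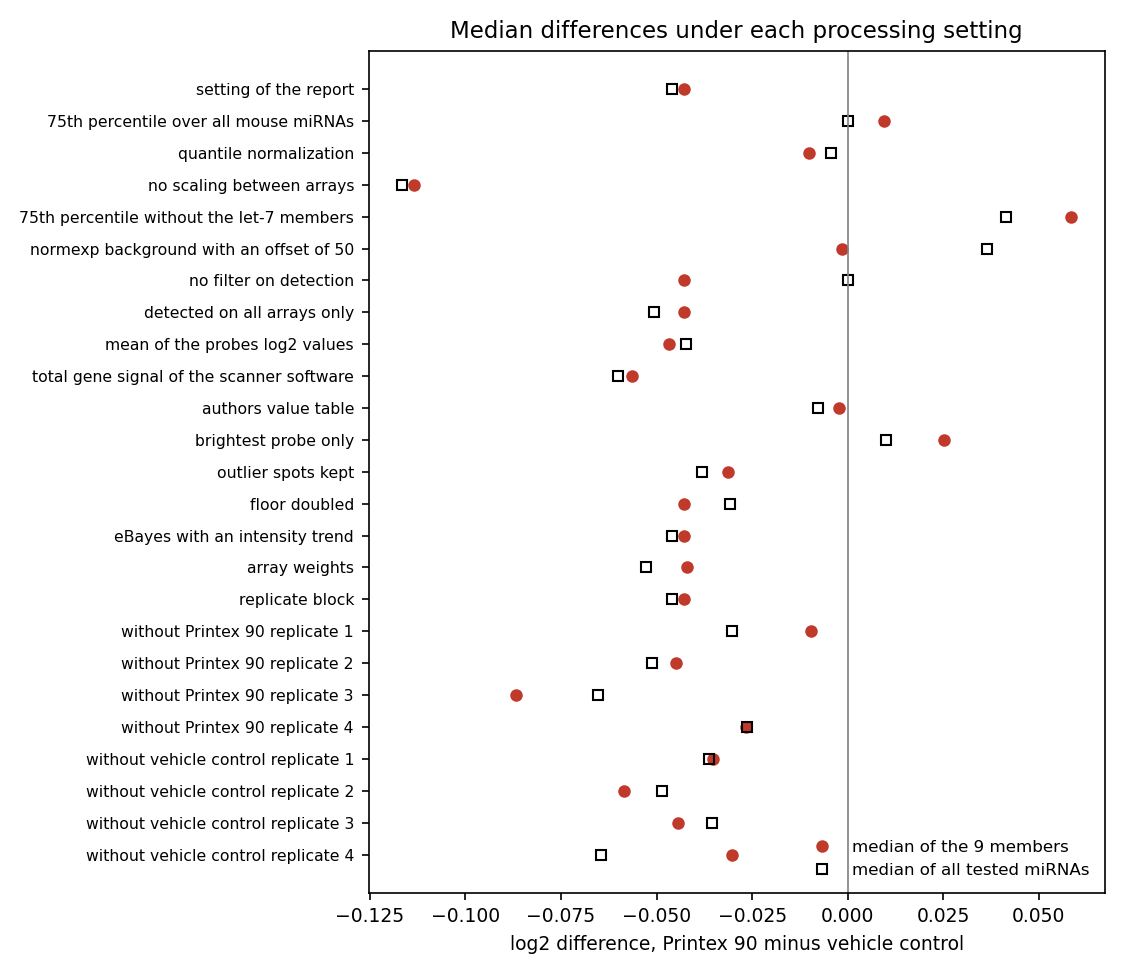
Median log2 difference (Printex 90 minus vehicle control, horizontal axis) of the 9 members (circles) and of all tested miRNAs (open squares) under each processing setting. The members' median lies between -0.11 and 0.059, and within 0.043 of the median of all tested miRNAs under every setting shown.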

How the data were processed

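8 samples of mouse lung RNA (4 Printex 90, 4 vehicle control) were measured on one-colour Agilent miRNA arrays. The sample labels gave each array's group and number. Per the file headers, the scanner images (grid design 021828) were turned into spot intensity by Feature Extraction 10.7.3.1, which subtracted background and did not normalize between arrays, and the other deposited columns used are flags per spot. RNA was enriched for small RNA with a miRvana kit, per the labels' protocols. The log2 values in the authors' deposited table were made by steps not given in the sources used here. Its column medians were 5.44 to 5.46, it correlated at 0.999 to 1.0 with the log2 median spot signal of the same array, without background subtraction, and it was used only as an alternative. Its centring between arrays stays unknown.

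Control and outlier-flagged spots were left out, spots of a probe averaged and probes of a miRNA summed. Detection needed 1 probe with at least 50% of its spots well above background. Signals were scaled to the array's 75th percentile among the 240 mouse miRNAs that all arrays detected, a floor of 0.0388 (the 5th percentile of detected signals) was set and log2 was taken. Detection on 4 or more arrays left 268 mouse miRNAs for limma 3.58.1 in R 4.3.3 (lmFit, eBayes, 2-sided, Benjamini-Hochberg over all 268), with Python 3.11.15, numpy 2.4.6 and pandas 2.3.3 for the rest. With 4 arrays a group, their number limits the precision. The limma step was tested on simulated data.

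The files name no genome build. Sequences, coordinates and host genes came from RefSeq tables of GRCm38.p6, matched by miRNA name, with all 9 members and 6 of the 7 passenger strands found. Neighbouring miRNA genes were taken within 50000 bases, while the partner list was set by name. The members, lists and tests were chosen with earlier results of these data known. Named miRNAs were all members, every tested passenger strand and partner on the lists, and the 3 others nearest to the members' mean profile. Replicate numbers were shared by the groups and equal the slide column. The deviations of same-numbered arrays correlated at -0.13, -0.38, -0.47 and 0.44, so the numbers were not taken as pairs. No array file repeated another's values. The normexp alternative used the median spot signal, since the mean spot signal is not among the columns used here.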

Additional observations from a re-analysis of the deposited data

Results flagged for a closer look

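Dixon's 95% limit on the gap to the nearest array, as a part of the group's range, was used to mark 1 array of 4 as apart. Over the 68 groups checked (members, passenger strands, partners, nearest miRNAs, balances and sums), 3 passed this limit, where chance gives about 1 in 20, or 3.4. let-7b on vehicle control replicate 2 was low, at 3.451 on the log2 scale with the next lowest at 3.5 (gap 0.922 of the range), a small step in absolute terms because the other vehicle control arrays lay close together. let-7b* on Printex 90 replicate 4 was low, at -1.766 with the next at -1.685 (gap 0.878). miR-100, encoded beside Mirlet7a-2, was low on vehicle control replicate 3, at -0.855 with the next at -0.755 (gap 0.875). No cause of these 3 values was tested.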

How the results depend on the processing

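No member passed the limma test under any of the 24 alternatives, and its count over all miRNAs was 0 except without Printex 90 replicate 3, when 3 passed (miR-135b, miR-146b and miR-21, none a member). At an unadjusted p under 0.05 the count over all miRNAs ran from 8 to 30, against 15. Of 24 alternatives 5 leave every member's value as it was (45 values). Another 4 move all members by 1 constant, 0.052 for the percentile over all mouse miRNAs, 0.10 for the percentile without the members, -0.071 for no scaling and -0.014 for the total gene signal, and 16 of these 36 values changed sign. Of the 135 values under the other 15 alternatives 19 changed sign. With the brightest probe only, the 75th percentile was also retaken over those probes. The same let-7a probe was at -0.039 on the scale used here and at 0.016 under that setting. The brighter let-7i probe was at 0.043 and 0.098. For the other alternatives the cause was not tested. With the 75th percentile over all mouse miRNAs (0.0096) or without the members (0.059), the members' median moved beyond the spread used for it. It also did so with no scaling (-0.11), with the brightest probe only (0.025) and without Printex 90 replicate 3 (-0.087). The spread used was the SD within groups of the middle member on each array, which was always let-7i. let-7i had the lowest residual SD of the members (0.041 log2 units, against a median of 0.076), so these moves were set against a narrow spread. With 1 array left out the members' median ran from -0.087 to -0.0096. The within-array balance moved beyond the spread between arrays for 7 members with quantile normalization, and for let-7a and let-7c (-0.063) with the authors' deposited table. With outlier spots kept the let-7a balance was 0.0045. The spread of the ratios between members was recomputed under the alternatives after seeing the data, and its median ran from 0.032 to 0.069. The passenger strands' median moved to 0.062 with normexp, and the partners' to 0.091 with the percentile taken without the members. Leaving out 1 array in turn gave 0 to 3 calls.

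Log2 differences that changed sign are given by alternative. Percentile over all mouse miRNAs: let-7a 0.0079, let-7b 0.0039, let-7c 0.0096, let-7d 0.0094, let-7f 0.0066, let-7g 0.015, miR-98 0.035, let-7b* 0.0096, miR-99a 0.044, miR-99b 0.042 and miR-125a-5p 0.0053. Percentile without the members: let-7a 0.057, let-7b 0.053, let-7c 0.059, let-7d 0.058, let-7f 0.055, let-7g 0.064, miR-98 0.084, let-7b* 0.058, miR-99a 0.093, miR-99b 0.091, miR-125a-5p 0.054 and miR-125b-5p 0.041. Brightest probe only: let-7a 0.016, let-7b 0.017, let-7c 0.027, let-7d 0.029, let-7f 0.016, let-7g 0.013, miR-98 0.025, let-7d* 0.024, let-7i* 0.0014, miR-99a 0.047, miR-99b 0.055, miR-125a-5p 0.013 and miR-125b-5p 0.012. Quantile normalization: let-7b 0.016, let-7d 0.033, let-7e -0.041, miR-98 0.047, let-7a* -0.025, let-7b* 0.0039, miR-99a 0.014, miR-99b 0.066 and miR-125a-5p 0.032. No scaling: let-7e -0.041, let-7i -0.051, let-7f* -0.029 and miR-100 -0.070. Normexp: let-7g 0.0011, miR-98 0.037, let-7b* 0.039, let-7d* 0.010, let-7g* 0.055, let-7i* 0.068, miR-99a 0.029, miR-99b 0.059 and miR-125a-5p 0.0073. The authors' deposited table: let-7a 0.064, miR-98 0.0024, let-7b* 0.011, miR-99a 0.0063, miR-99b 0.081 and miR-125a-5p 0.0073. Array weights: let-7f* -0.0082 and miR-100 -0.024. Outlier spots kept gave miR-99b 0.0019, the mean of probe log2 values gave miR-100 -0.027, and the scanner's total gene signal gave miR-100 -0.013.

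With 1 array left out, let-7e ran from -0.022 to 0.073, let-7g from -0.080 to 0.0038, miR-98 from -0.051 to 0.011, let-7a* from -0.010 to 0.079, let-7b* from -0.099 to 0.0015, let-7f* from -0.031 to 0.087, miR-99a from -0.045 to 0.019, miR-99b from -0.036 to 0.014 and miR-100 from -0.026 to 0.021. With the replicate block the count of miRNAs past the threshold was again 0, and it changed no call. let-7a* and let-7i* have no value when only miRNAs detected on all arrays are tested, nor with the floor doubled, when all their values are at the floor. Normexp ran on the median spot signal in place of the mean.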
